A study of Mus musculus with 15 samples.

Results

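The RNA levels of 7 matrix metalloproteinases (Mmp2, Mmp8, Mmp9, Mmp12, Mmp13, Mmp14 and Mmp19) and 3 tissue inhibitors of metalloproteinases (Timp1, Timp2 and Timp3) were followed in tumor-associated macrophages (TAMs) of mouse liver tumors. The 10 genes were chosen by symbol out of 55335 genes in the table. Macrophages were isolated by FACS, with antibodies to CD11b (encoded by Itgam) and F4/80 (Adgre1) per the study's methods, from orthotopic tumors grown in C57BL/6 mice from Hepa1-6 cells, a mouse hepatoma line, and sequenced as bulk RNA. The Hepa1-6 cells, and not the macrophages, had been infected with lentiviruses, which carried miR-144, miR-451a or a control and, in all groups, luciferase. Each of the 3 groups (control, miR-144 and miR-451a) had 5 samples, 15 in all, and the age of the mice was not given. The comparisons ask how TAMs differ when the tumor cells around them overexpress either miRNA.

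Matrix metalloproteinases (MMPs) are zinc-dependent proteases that cleave collagens, elastin and other proteins of the extracellular matrix. Most are secreted as inactive proenzymes, whereas membrane-type MMPs such as MMP14 stay on the cell surface. TIMPs bind the active site of MMPs, and TIMP2 also bridges MMP14 and proMMP2 on the cell surface so that MMP14 can cut the proenzyme. Macrophages are a known source of several MMPs in tumors.

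In short, control TAMs held high RNA levels of Mmp12 and Mmp19, and both were about 9 to 12 times lower in TAMs of either miRNA group, while Mmp14, Mmp2, Timp1 and Timp3 were higher. Mmp8, Mmp13 and Timp2 were also lower. Levels are given as FPKM, fragments per kilobase of transcript scaled to the mapped fragments of the sample, which may be compared between genes. Differences were tested with limma on log2(FPKM + 1) over all 29540 genes above 0 FPKM in at least 1 sample, and passed at an adjusted p under 0.05. On this scale, changes of genes with few fragments look smaller than they are.

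Depth, read from the steps between low FPKM values, was about 15.5 to 30.3 M fragments per sample. At this depth a floor of 3 fragments was exceeded by all 10 genes in each of the 15 samples, and the lowest value was 0.252 FPKM for Mmp9 against a floor of 0.0608 FPKM. The 6 macrophage markers (Adgre1, Csf1r, Cd68, Itgam, Fcgr1 and Mertk) summed to 1978 to 2253 FPKM in all 15 samples, though the single markers moved with the groups. Cd68 fell from 1444 FPKM to 919 and 910 on average, whereas Fcgr1 rose from 18.01 to 122 and 118, Adgre1 from 137 to 361 and 354, and Csf1r from 401 to 691 and 693. Mertk was also higher in both comparisons and Itgam in that with miR-144 (in TPM in both), and Ccr2, a chemokine receptor of monocytes, rose from 0.161 FPKM to 1.05 and 1.39. Of the 6 hepatocyte and hepatoma markers, 5, Alb among them, were listed at 0 throughout. Of 5 liver macrophage markers, Clec4f was listed at 0 in all 15 samples, and the other 4 (Cd5l, Marco, Timd4 and Vsig4) were higher in both comparisons. Their sums were 3.30 to 3.77 FPKM in the control group, 17.1 to 50.1 FPKM with miR-144 and 15.99 to 47.3 FPKM with miR-451a, most of it Cd5l, which rose from 3.40 to 29.8 and 27.1 FPKM on average. After median centring the calls of Timd4 in both comparisons, Marco with miR-144 and Vsig4 with miR-451a were lost, the last after quantile normalization too. Fibroblast and stellate cell markers, 9 genes with Col1a1, Acta2 and Pdgfrb among them, moved with the groups, with sums of 130.6 to 168 FPKM in the control group, 217 to 298 FPKM with miR-144 and 251.7 to 325 FPKM with miR-451a. Sums of 5 endothelial markers were 3.70 to 4.30, 4.68 to 5.08 and 4.69 to 5.94 FPKM in the same order. Kdr was higher in both comparisons (limma adjusted p = 0.00717 and 0.00231), but in neither after quantile normalization (adjusted p = 0.145 and 0.0652). Pecam1 was lower with miR-144 (limma adjusted p = 0.0330), a call lost in TPM (adjusted p = 0.0681). The part of these cell types in the results was not tested. In bulk RNA, fewer cells of a type and less RNA per cell cannot be told apart. The labels do not say that the samples of a group came from separate mice, so the p-values measure the spread between these samples, which may be technical.

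Against control, 4 of the 10 genes were higher and 5 lower in the miR-144 group, and the same 4 and 5 in the miR-451a group. Over all genes tested, 23.1% were called higher and 9.65% lower for miR-144, and 24.5% and 9.69% for miR-451a. Among the 11419 genes averaging 1 FPKM or more, these shares were 44.1% and 18.6% for miR-144, and for miR-451a they were 45.3% and 18.8%. At such levels of background change, 4 of 10 higher genes is near the share of expressed genes that were higher. The 5 of 10 lower genes is above the share that were lower, which rests on the scaling. After median centring 3537 (miR-144) and 3666 (miR-451a) of the 11419 genes were lower, and after quantile normalization 3005 and 3103. The 10 genes were chosen with earlier results of these data known. No test of the 10 genes as a set was made. On the log2 scale the 10 genes had a median difference of -0.18 (miR-144) and -0.11 (miR-451a), beside 0.13 and 0.14 for the genes averaging 1 FPKM or more. After median centring the medians of the 10 genes were -0.31 and -0.25, and in TPM they were -0.04 and 0.10, so that the sign for miR-451a rests on the scaling. Both comparisons use the same 5 control samples and are therefore not independent.

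**Figure D1:**
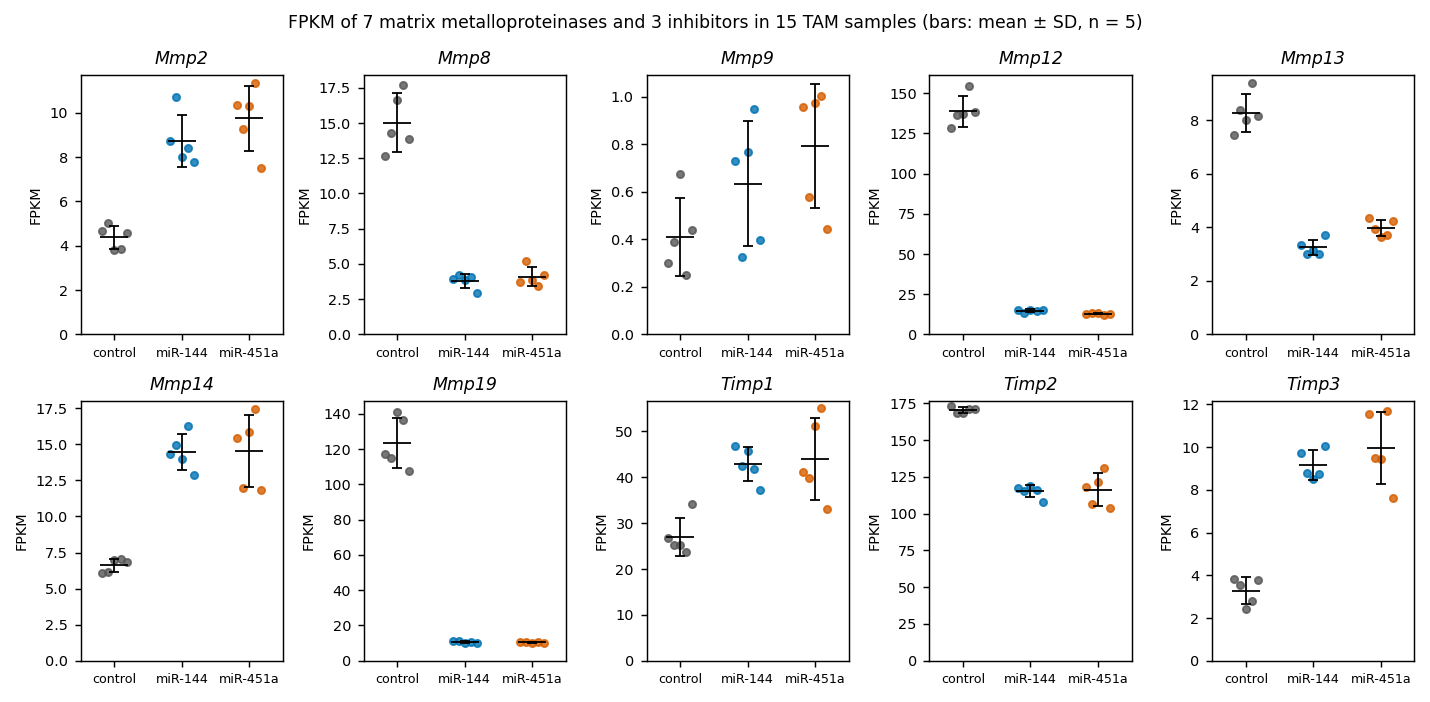
FPKM of the 10 genes in the 15 TAM samples, with a panel for each gene, a point for each sample and bars for the mean ± SD (n = 5). The vertical axes start at 0 and differ between panels. Mmp12 and Mmp19 fell from over 100 FPKM in all control samples to under 16 FPKM in all miRNA samples, whereas the 3 groups overlap for Mmp9.

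Among the secreted enzymes, Mmp12 encodes the macrophage elastase. Its gene (ENSMUSG00000049723) lies on chromosome 9 from 7344381 to 7369499 on the plus strand in the GENCODE M21 annotation of GRCm38. In control replicates 1 to 5 its level was 128, 137, 137, 155 and 138 FPKM. The corresponding values were 15.04, 13.4, 15.4, 14.9 and 15.5 FPKM with miR-144, and 13.0, 13.1, 13.5, 12.3 and 12.7 FPKM with miR-451a. No miRNA sample came near the lowest control sample. The mean fell from 139 ± 9.60 FPKM (SD, n = 5) to 14.8 ± 0.822 in the miR-144 group and 12.9 ± 0.446 in the miR-451a group, which is 9.36 times and 10.8 times lower. On the log2 scale the differences were -3.14 and -3.33 (standard error 0.05 for both, limma adjusted p = 3.00e-15 and 1.46e-15).

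Mmp19 (ENSMUSG00000025355, chromosome 10, 128790910 to 128800824, plus strand) encodes a secreted MMP that acts on basement membrane proteins. It measured 117, 115, 141, 137 and 108 FPKM in control replicates 1 to 5. With miR-144 it measured 11.5, 11.3, 10.01, 10.9 and 10.3 FPKM, and with miR-451a 10.9, 10.8, 9.95, 10.4 and 10.3 FPKM. The values of both miRNA groups lay within a narrow band, far under the control samples. Mean levels were 123.5 ± 14.4, 10.8 ± 0.623 and 10.5 ± 0.387 FPKM (SD, n = 5), so that Mmp19 was 11.5 times lower in the miR-144 group and 11.8 times lower in the miR-451a group (log2 differences of -3.40 and -3.43, standard error 0.07, limma adjusted p = 5.63e-14 and 4.57e-14). Tmem198b overlaps Mmp19 on the opposite strand at 3.90 to 6.34 FPKM, and since strand use in counting was not stated, fragments of the pair may not have been told apart.

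Mmp8 and Mmp13 encode collagenases that cut fibrillar collagens, and Mmp8 is best known from neutrophils. Mmp8 (ENSMUSG00000005800, chromosome 9, 7558456 to 7568485, plus strand) had 12.6, 14.3, 16.6, 17.7 and 13.8 FPKM in control replicates 1 to 5, against 3.91, 4.23, 3.84, 4.05 and 2.93 FPKM with miR-144 and 3.76, 5.22, 3.88, 3.42 and 4.21 FPKM with miR-451a. The control samples did not overlap either miRNA group. The means were 15.02 ± 2.09, 3.79 ± 0.503 and 4.10 ± 0.689 FPKM (SD, n = 5), with log2 differences of -1.74 and -1.65 (standard error 0.11, limma adjusted p = 9.10e-09 and 1.50e-08). All 10 neutrophil markers, S100a8, S100a9, Ly6g, Mpo and Elane among them, stayed under 1 FPKM in all 15 samples, with sums of 0.139 to 1.01 FPKM in the control group, 0.130 to 0.796 FPKM with miR-144 and 0.371 to 1.44 FPKM with miR-451a. Cxcr2, the neutrophil marker that passed, was lower, at 0.0804 FPKM in the control group and 0.00367 and 0.00306 FPKM in the miRNA groups (limma adjusted p = 0.00125 and 0.00110). S100a9 did not pass, with 0 FPKM in all control samples and 0.138 and 0.157 FPKM on average in the miRNA groups (limma adjusted p = 0.139 and 0.0813), nor did Ngp, with 0.00590, 0.0243 and 0.0604 FPKM. S100a8, the highest of the list, had 0.512, 0.213 and 0.419 FPKM and did not pass either. With miR-144 it was lower after median centring (adjusted p = 0.00895) and quantile normalization (adjusted p = 0.0462). Median centring, which shifts genes near 0 FPKM together, called 7 (miR-144) and 5 (miR-451a) of the 9 markers tested lower. The part of neutrophils in the Mmp8 values was not tested.

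Mmp13 (ENSMUSG00000050578, chromosome 9, 7272514 to 7283331, plus strand) was lower too, by a smaller step. Control replicates 1 to 5 had 7.46, 8.37, 7.99, 9.39 and 8.15 FPKM. The miR-144 samples had 3.36, 3.02, 3.14, 3.02 and 3.71 FPKM, and the miR-451a samples 4.34, 3.95, 3.66, 3.73 and 4.23 FPKM. All miRNA samples lay under all control samples, and the miR-451a range began just under the highest miR-144 value. The log2 differences were -1.12 for miR-144 and -0.90 for miR-451a (standard error 0.06, limma adjusted p = 2.06e-09 and 2.29e-08).

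The gelatinases Mmp2 and Mmp9, which degrade denatured collagen and collagen IV, did not share this direction. Mmp2 (ENSMUSG00000031740, chromosome 8, 92827291 to 92853420, plus strand) measured 4.66, 5.02, 3.81, 3.84 and 4.57 FPKM in control replicates 1 to 5. It measured 8.73, 10.7, 8.02, 8.41 and 7.77 FPKM with miR-144 and 10.3, 9.26, 10.3, 11.3 and 7.49 FPKM with miR-451a. Each miRNA sample was above the highest control sample. Mean Mmp2 was 1.99 times higher in the miR-144 group and 2.23 times higher in the miR-451a group (log2 differences of 0.85 and 0.99, standard error 0.10, limma adjusted p = 1.30e-05 and 2.57e-06).

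Mmp9 (ENSMUSG00000017737, chromosome 2, 164940780 to 164955850, plus strand) was the lowest of the 10 genes in each group. It had 0.299, 0.389, 0.673, 0.252 and 0.439 FPKM in control replicates 1 to 5, 0.729, 0.327, 0.769, 0.949 and 0.399 FPKM with miR-144, and 0.957, 0.578, 0.974, 1.005 and 0.443 FPKM with miR-451a. The groups overlapped, and in both miRNA groups replicates 1, 3 and 4 were higher than replicates 2 and 5. The log2 differences, 0.21 for miR-144 and 0.34 for miR-451a (standard error 0.13), did not pass (limma adjusted p = 0.272 and 0.0527). After rescaling to TPM the difference with miR-451a was 0.67 and passed (adjusted p = 0.0336). With miR-451a the adjusted p ran from 0.0203 to 0.226 over the alternative settings, and it was under 0.05 without any 1 of control replicate 3 (0.0286), miR-144 replicate 2 (0.0421) or 4 (0.0447), or miR-451a replicate 2 (0.0462) or 5 (0.0203).

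Mmp14 (ENSMUSG00000000957, chromosome 14, 54431612 to 54445364, plus strand) encodes the membrane-type MMP that activates proMMP2. The 5 control samples, in order of replicate, had 6.09, 6.18, 6.96, 7.05 and 6.82 FPKM. With miR-144 the values were 14.3, 14.9, 14.0, 16.2 and 12.9 FPKM, and with miR-451a 15.4, 12.0, 15.9, 17.4 and 11.8 FPKM. The lowest miRNA sample was well above the highest control sample, and the miR-451a samples fell into 2 low values and 3 high ones. Mean Mmp14 was 6.62 ± 0.452 FPKM (SD, n = 5) in the control group, 14.5 ± 1.24 in the miR-144 group and 14.5 ± 2.49 in the miR-451a group, 2.19 times the control level in both (log2 differences of 1.02 and 1.01, standard error 0.10, limma adjusted p = 8.46e-07 and 8.67e-07).

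The genes that act with Mmp14 and Mmp2 did not all move one way. Furin, the protease that trims proMMP14 inside the cell, fell from 32.2 ± 1.09 FPKM (SD, n = 5) to 21.6 ± 2.72 and 22.0 ± 2.58 (limma adjusted p = 1.46e-04 and 2.06e-04). Cd63, a tetraspanin that binds TIMP1 and MMP14, fell from 285 ± 15.5 FPKM to 166 ± 10.9 and 160.0 ± 7.03 (limma adjusted p = 1.19e-08 and 5.73e-09). Reck, a membrane-anchored MMP inhibitor, rose from 0.183 ± 0.0228 FPKM to 0.366 ± 0.119 and 0.384 ± 0.0294 (limma adjusted p = 0.00401 and 0.00169), and both calls were lost after median centring (adjusted p = 0.210 and 0.136).

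Of the inhibitors, Timp2 (ENSMUSG00000017466, chromosome 11, 118301069 to 118355740, minus strand) was the most abundant of the 10 genes in each group. Its level in control replicates 1 to 5 was 173, 169, 169, 171 and 171 FPKM. It was 117, 116, 119, 116 and 108 FPKM with miR-144 and 118, 107, 121, 131 and 104 FPKM with miR-451a. The control samples spanned only a few FPKM and lay above all others, and the miR-451a samples spread most. Mean Timp2 fell from 170.5 ± 1.97 FPKM (SD, n = 5) to 115 ± 4.20 and 116 ± 11.2 (log2 differences of -0.56 and -0.55, standard error 0.05, limma adjusted p = 8.77e-07 and 9.56e-07).

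Timp1 (ENSMUSG00000001131, chromosome X, 20870166 to 20874735, plus strand) encodes a secreted inhibitor of most soluble MMPs, proMMP9 being a known partner. It measured 26.9, 25.3, 25.3, 23.8 and 34.2 FPKM in control replicates 1 to 5, 46.9, 42.4, 45.8, 41.9 and 37.3 FPKM with miR-144, and 41.1, 39.8, 51.2, 55.1 and 33.1 FPKM with miR-451a. Control replicate 5 was higher than the other control samples and exceeded the lowest miR-451a sample, replicate 5, so those groups overlapped. Mean Timp1 was 1.58 and 1.63 times the control level (log2 differences of 0.65 and 0.67, standard error 0.13, limma adjusted p = 0.00104 and 7.63e-04). In the exact permutation test, two-sided and adjusted over all genes, the rise with miR-451a no longer passed (adjusted p = 0.0505).

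Timp3 (ENSMUSG00000020044, chromosome 10, 86300372 to 86349506, plus strand) encodes the inhibitor that binds to the matrix and also blocks ADAM17. Its values were 3.83, 3.56, 2.42, 2.79 and 3.80 FPKM in control replicates 1 to 5, 9.72, 8.78, 8.50, 8.72 and 10.1 FPKM with miR-144, and 11.5, 9.47, 9.45, 11.7 and 7.60 FPKM with miR-451a. Every miRNA sample held more Timp3 RNA than any control sample. The mean was 3.28 ± 0.635 FPKM (SD, n = 5) in the control group and 2.79 and 3.03 times as high in the miRNA groups (log2 differences of 1.26 and 1.35, standard error 0.12, limma adjusted p = 7.00e-07 and 3.03e-07). Timp3, Mmp2 and Mmp14 rose in both miRNA groups. Of the 9 fibroblast and stellate cell markers, 4 were higher for miR-144 and 8 for miR-451a, with Lum and Des under 1 FPKM in all samples. Among all genes averaging 1 FPKM or more, 44.1% and 45.3% were higher. After median centring 4 of the markers were higher and 2 lower for miR-144, and 6 were higher for miR-451a. Quantile normalization left 4 and 6 higher, and in TPM 5 and 8 were higher. The part of fibroblasts and stellate cells in the rises of Timp3, Mmp2 and Mmp14 was not tested.

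**Figure D2:**
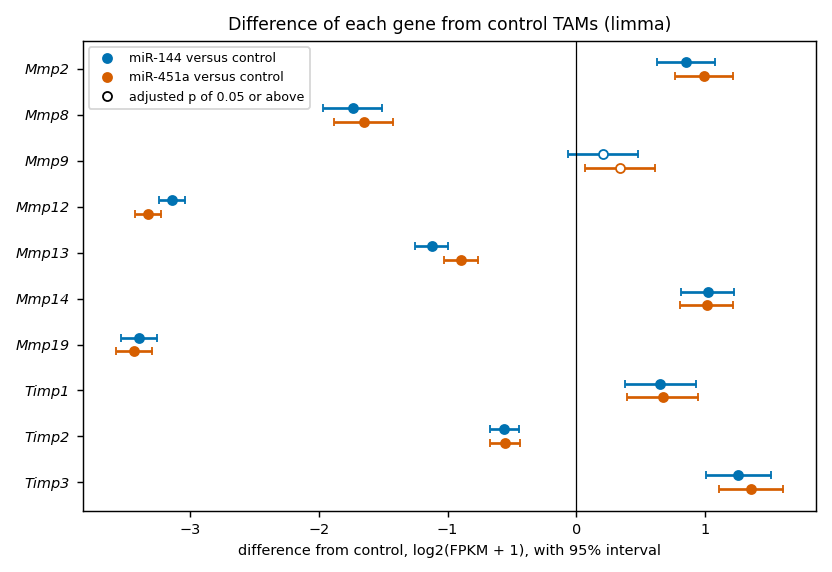
Difference of each gene from control TAMs on the log2(FPKM + 1) scale, as estimated by limma, with 95% intervals, for miR-144 and miR-451a. Filled points have an adjusted p under 0.05. Of the 10 genes, 4 passed right of 0 and 5 left of 0 in both comparisons, with Mmp12 and Mmp19 beyond -3, and Mmp9 is the open point, right of 0.

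The samples of the groups did not overlap in 9 of the 10 genes between miR-144 and control, Mmp9 being the exception, and in 8 of 10 between miR-451a and control, the exceptions being Mmp9 and Timp1. Of the genes averaging 1 FPKM or more, 53.9% and 55.2% did not overlap in these comparisons. Directions against control were tested under other scalings too, since the share of changed genes that were higher depends on the scaling. That share, among genes averaging 1 FPKM or more, was 70.3% for miR-144 and 70.7% for miR-451a, 49.97% and 49.5% after median centring of the samples, 53.7% and 53.6% after quantile normalization, and 76.7% and 77.7% after rescaling each sample to TPM, in which the values of all genes add up to the same total in each sample. The 9 genes called kept their direction and their call under each of these scalings in both comparisons.

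Between TAMs of the miR-451a and miR-144 groups, limma called none of the 10 genes and 0% of all genes tested. At an unadjusted p under 0.05 there were 2 of the 10 genes and 1459 of 29540 genes, and the exact permutation test called 0 of the 10 genes as well. Mmp12 was lower with miR-451a than with miR-144 by a log2 difference of -0.19 (95% interval -0.29 to -0.09, limma adjusted p = 0.678). Mmp13 was higher by 0.23 (95% interval 0.10 to 0.36, limma adjusted p = 0.705). The intervals of the other 8 genes held 0, from the narrowest for Timp2 (-0.11 to 0.12) to the widest for Timp1 (-0.26 to 0.30) and Mmp9 (-0.14 to 0.41). None of the 10 genes had groups without overlap, where 0.849% of genes averaging 1 FPKM or more did.

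The summed level of the 7 MMP genes was 297 ± 23.3 FPKM (SD, n = 5) in control TAMs, 56.5 ± 2.12 in the miR-144 group and 56.5 ± 3.43 in the miR-451a group, and the groups did not overlap the control range of 276.5 to 329 FPKM. Mmp12 and Mmp19 together made up 88.3% ± 0.337 of that sum in the control group, 45.4% ± 2.11 for miR-144 and 41.5% ± 2.75 for miR-451a. Without this pair, the other 5 MMP genes summed to 34.7 ± 2.64, 30.9 ± 2.24 and 33.1 ± 3.48 FPKM (SD, n = 5), with ranges that overlapped between the 3 groups. As a share of the sum of all 7, which fell with Mmp12 and Mmp19, Mmp14 went from 2.23% ± 0.119 to 25.6% ± 1.38 and 25.6% ± 3.05, while its own level rose 2.19 times.

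The 3 TIMP genes summed to 201 ± 5.46 FPKM (SD, n = 5) in control TAMs, 167 ± 7.41 in the miR-144 group and 170.2 ± 21.1 in the miR-451a group. The control range of 196 to 209 FPKM was above all miR-144 samples and overlapped the miR-451a range of 144 to 198 FPKM. Summed MMP over summed TIMP RNA was 1.48 ± 0.146, 0.338 ± 0.0134 and 0.334 ± 0.0232 in the same order, a ratio of RNA levels and not of protein or activity. Timp2 held 84.9% ± 1.83 of TIMP RNA in the control group and 68.9% ± 0.909 and 68.5% ± 2.23 in the miRNA groups, while Timp1 went from 13.5% ± 1.68 to 25.6% ± 1.16 and 25.7% ± 2.29.

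**Figure D3:**
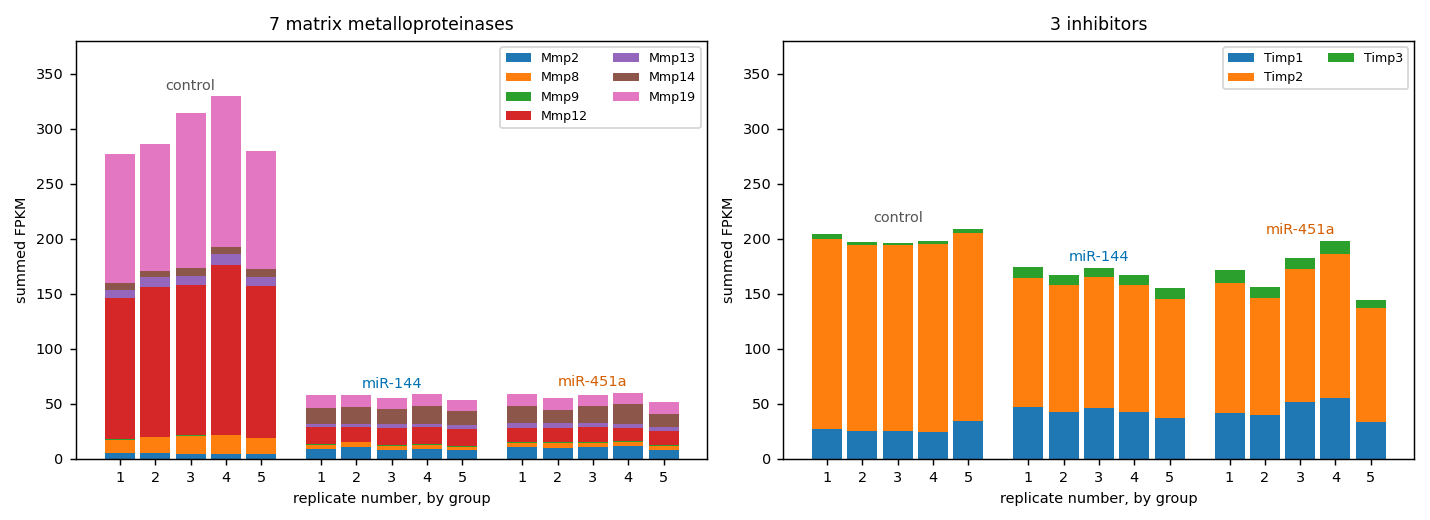
Summed FPKM of the 7 MMP genes (left) and the 3 TIMP genes (right) in each of the 15 samples, stacked by gene, on the same scale. The MMP bars of the control samples reach 276.5 to 329 FPKM, mostly Mmp12 and Mmp19, and all miRNA samples stay under 60 FPKM, whereas Timp2 fills most of each TIMP bar.

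Ordered by mean FPKM, control TAMs held Timp2, Mmp12, Mmp19, Timp1, Mmp8, Mmp13, Mmp14, Mmp2, Timp3 and Mmp9, from high to low. Among neighbours in that order, the ranges of samples overlapped for Mmp12 and Mmp19 and for Mmp2 and Timp3. In the miR-144 group the order was Timp2, Timp1, Mmp12, Mmp14, Mmp19, Timp3, Mmp2, Mmp8, Mmp13 and Mmp9, with overlap between Mmp12 and Mmp14, along Mmp19, Timp3 and Mmp2, and between Mmp8 and Mmp13. The miR-451a order differed only in that Mmp14 stood before Mmp12, and that pair overlapped. Mmp14 thus moved from the lower part of the order into the range of Mmp12.

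Mmp13, Mmp12 and Mmp8, which were all lower, are neighbours in the Mmp gene cluster of chromosome 9 and lie in this order within 296 kb. Mmp3, Mmp1a and Mmp1b in between had at most 0.748 FPKM in any sample, and Mmp10 at most 1.08 FPKM. Mmp10 went the other way, from 0.0711 FPKM on average to 0.357 (miR-144) and 0.402 (miR-451a). Neither miRNA group overlapped the control group. It did not pass (limma adjusted p = 0.0877 and 0.0693) but did in TPM (adjusted p = 0.0326 and 0.0321). Mmp27 starts at 7571396, next to the end of Mmp8 at 7568485 and on the same strand. It rose as well, from 6.23 ± 0.459 FPKM (SD, n = 5) to 8.61 ± 2.07 (miR-144) and 9.17 ± 1.59 (miR-451a, log2 differences of 0.39 and 0.48, standard error 0.14, limma adjusted p = 0.0413 and 0.0123). The Mmp27 call was lost in both comparisons after quantile normalization (adjusted p = 0.215 and 0.0831) and with miR-144 after median centring (adjusted p = 0.106).

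The promoters of Mmp12 and Mmp13, chosen because each holds an AP-1 motif, were set beside those of a membrane-type MMP and an inhibitor that rose, to show what these starts look like. The RefSeq promoter table (GRCm38.p6) held 8 entries for 7 of the 10 genes. Mmp12 has 2 entries, and the one inside the annotated gene, which holds a motif, is shown. The 150 bases before each start are given 5′ to 3′ on the strand of the gene, with motif matches in capitals. AP-1 sites bind Fos and Jun dimers, and AP-1 is a textbook regulator of MMP transcription. An AP-1 site was searched as TGAGTCA on both strands, so that TGACTCA is the same site read from the other strand. The TATA motif was searched on both strands as TATAAA. A GC box was searched in the same way as GGGCGG, and reads CCGCCC from the opposite strand.
Mmp12, chr9:7347224-7347373, plus strand: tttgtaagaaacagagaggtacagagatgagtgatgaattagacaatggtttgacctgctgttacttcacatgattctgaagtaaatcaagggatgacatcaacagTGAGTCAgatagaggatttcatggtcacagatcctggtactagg
Mmp13, chr9:7272364-7272513, plus strand: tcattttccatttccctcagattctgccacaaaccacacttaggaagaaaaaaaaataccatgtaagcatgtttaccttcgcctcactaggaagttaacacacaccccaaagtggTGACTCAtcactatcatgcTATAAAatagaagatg
Mmp14, chr14:54431448-54431597, plus strand: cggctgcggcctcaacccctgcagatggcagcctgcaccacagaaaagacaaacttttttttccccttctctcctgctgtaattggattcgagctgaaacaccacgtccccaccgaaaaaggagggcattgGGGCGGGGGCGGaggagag
Timp1, chrX:20870016-20870165, plus strand: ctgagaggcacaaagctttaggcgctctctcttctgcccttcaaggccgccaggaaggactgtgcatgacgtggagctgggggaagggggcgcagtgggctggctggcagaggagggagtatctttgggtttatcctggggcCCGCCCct

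Within the 250 bases before the start, the AP-1 site lay 44 bases before the Mmp12 start and 35 bases before the Mmp13 start, and 4.46% of all 32851 promoters in the table hold such a site. Mmp13 also held a TATA motif, as do 12.4% of promoters. Mmp14 held 2 adjacent GC boxes, and Timp1, Timp2 and Timp3 1 each, a motif found in 32.7% of promoters. The Mmp8 entry and the other Mmp12 entry held none of these 3 motifs. A match describes the sequence and does not show that a factor binds there.

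Among 18 regulators of MMP transcription, 8 were higher and 5 lower for miR-144, and 8 and 4 for miR-451a, at median log2 differences of 0.19 and 0.22. Under median centring 8 were higher in either comparison, and 8 and 7 lower. Fosb, near 0 FPKM, was among the lower in both. The AP-1 genes Jun, Fos, Fosl2 and Jund were lower and Fosl1 was higher. Jun fell from 77.7 ± 2.37 FPKM (SD, n = 5) to 45.1 ± 1.80 and 46.4 ± 2.91, and Fos from 12.0 ± 0.408 to 7.12 ± 0.456 and 7.05 ± 0.490 (limma adjusted p from 1.98e-09 to 2.79e-08). Fosl2 fell from 9.55 ± 0.354 FPKM to 6.18 ± 0.350 and 6.20 ± 0.329. Fosl1, at a far lower level, rose from 0.348 ± 0.0617 FPKM to 1.08 ± 0.281 and 1.002 ± 0.202 (limma adjusted p = 6.13e-05 and 1.30e-04). Jund also fell, from 51.6 ± 3.88 FPKM to 38.8 ± 4.90 and 40.0 ± 5.59, whereas Junb had 34.2, 30.8 and 33.0 FPKM and did not pass. Spi1, the factor PU.1 of the myeloid lineage, and Tgfb1 did not pass either, with 96.5, 103 and 104 FPKM and 48.4, 48.8 and 50.2 FPKM in the 3 groups. In TPM, however, Spi1 was higher in both comparisons (adjusted p = 0.0479 and 0.0162), and with miR-451a after quantile normalization as well (adjusted p = 0.0475). Tgfb1 was higher with miR-451a in TPM (adjusted p = 0.0395) and lower with miR-144 after median centring (adjusted p = 0.0391), and Junb was lower in both comparisons after median centring (adjusted p = 0.00143 and 0.0162). Of the NF-kB genes, Rela rose from 22.5 ± 1.59 FPKM to 31.1 ± 2.59 and 30.8 ± 1.93 (limma adjusted p = 4.07e-05 and 4.84e-05) and Nfkb1 from 10.9 ± 0.571 to 13.5 ± 0.247 and 14.0 ± 0.347 (limma adjusted p = 2.54e-06 and 5.09e-07). Of the cytokines in the list, Tnf, an inducer of MMPs, rose from 1.62 ± 0.397 FPKM to 7.39 ± 1.20 and 6.41 ± 1.09 (limma adjusted p = 9.16e-08 and 2.94e-07), and Il1b, another inducer, from 0.519 ± 0.0695 FPKM to 2.85 ± 0.364 and 2.60 ± 0.453 (limma adjusted p = 1.51e-08 and 3.41e-08). Il10, an anti-inflammatory cytokine, rose from 0.731 FPKM to 4.07 and 3.93 (limma adjusted p = 2.01e-10 and 2.42e-10). Osm was higher in both comparisons (limma adjusted p = 0.00258 and 0.00147), though in neither after quantile normalization (adjusted p = 0.0804 and 0.0535). Il6 was near 0, at 0.0376 FPKM in the control group, listed at 0 in all miR-144 samples and at 0.00896 FPKM with miR-451a, and passed as lower with miR-144 but not with miR-451a (limma adjusted p = 0.0326 and 0.104).

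In the rest of the MMP and TIMP family, 17 genes, 13 were above 0 FPKM in some sample and only Mmp23 and Mmp27 averaged 1 FPKM or more. Of the 13, 5 were higher and 0 lower in each comparison, at a median log2 difference of 0.11 (miR-144) and 0.15 (miR-451a). Mmp23 rose from 2.80 ± 0.192 FPKM (SD, n = 5) to 4.21 ± 0.825 and 4.47 ± 0.425 (limma adjusted p = 0.00207 and 4.80e-04). Under median centring 1 and 2 of the 13 were higher and 5 lower in either comparison, most of them genes near 0 FPKM that the centring shifts together.

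Among 15 ADAM and ADAMTS proteases, relatives of the MMPs that shed surface proteins or cut proteoglycans, 5 were higher and 4 lower for miR-144, and 6 and 2 for miR-451a, at medians of 0.02 and 0.09 on the log2 scale. Under median centring 3 were higher in either comparison, 7 lower for miR-144 and 6 lower for miR-451a, and the medians turned to -0.11 and -0.06. Both of these medians were those of Adamts9, at 0.0702 FPKM in the control group, and the centring shifts genes near 0 FPKM together. Under quantile normalization the median for miR-144 was -0.0036. Adam8, a sheddase of leukocytes, was the most abundant and fell from 255 ± 11.6 FPKM (SD, n = 5) to 72.4 ± 9.98 and 65.1 ± 8.18 (log2 differences of -1.81 and -1.96, standard error 0.09, limma adjusted p = 1.28e-09 and 5.12e-10). Adam17, the TNF sheddase that TIMP3 inhibits, had 41.3, 44.4 and 42.6 FPKM in the 3 groups and did not pass, nor did Adam9 with 49.2, 46.6 and 52.1 FPKM. Adam10 had 31.9, 26.9 and 29.2 FPKM and passed with miR-144 but not with miR-451a (limma adjusted p = 0.0242), a call that was lost after rescaling to TPM (adjusted p = 0.103), and after median centring it was lower with miR-451a as well (adjusted p = 0.00563).

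Of 18 activators, inhibitors and partners of MMPs, 6 were higher and 7 lower for miR-144, and 7 and 7 for miR-451a, at medians of 0.0053 and 0.024 on the log2 scale. Under median centring 4 were higher and 10 lower in either comparison, at medians of -0.13 and -0.12. Both of these medians were those of A2m, which was at 0 FPKM in all control samples. A2m and Lcn2, both near 0 FPKM, were counted as lower only after the centring, which shifts such genes together. The lower genes included Cd44, a hyaluronan receptor that docks MMPs on the cell, from 50.8 ± 1.45 FPKM (SD, n = 5) to 22.3 ± 1.45 and 22.5 ± 1.49, and Plaur, the urokinase receptor, from 15.1 ± 1.32 to 5.51 ± 0.548 and 5.56 ± 0.438. Thbs1, a matrix protein that binds MMPs, rose from 55.6 ± 7.51 FPKM to 95.1 ± 6.79 and 105 ± 9.97. Bsg, known as an inducer of MMPs, had 107.5, 91.6 and 72.6 FPKM and was lower in both comparisons (limma adjusted p = 0.0394 and 8.37e-05), though not for miR-144 after quantile normalization (adjusted p = 0.102) or in TPM (adjusted p = 0.127). Lrp1, the endocytic receptor that clears MMP and TIMP complexes, had 162, 156 and 152 FPKM and passed in neither, but was lower in both after median centring (adjusted p = 0.00773 and 0.00172).

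Of 18 matrix substrates, 11 were higher for miR-144 and 13 for miR-451a, and 0 were lower in either, with median log2 differences of 0.44 and 0.68. Col1a1 rose from 70.0 ± 6.77 FPKM (SD, n = 5) to 102 ± 19.2 and 124 ± 11.8, and Col4a1, a basement membrane collagen, from 4.72 ± 0.801 to 10.3 ± 1.86 and 10.6 ± 1.29. Fn1 had 53.0, 51.3 and 54.2 FPKM and did not pass, and Sparc had 48.9, 60.3 and 69.0 FPKM and passed with miR-451a but not with miR-144 (limma adjusted p = 0.0605 and 0.00276). With miR-144 Sparc passed after quantile normalization (adjusted p = 0.0373) and in TPM (adjusted p = 0.0163). Spp1, or osteopontin, was the most abundant at 653 ± 99.5 FPKM in the control group, 989 ± 242 in the miR-144 group and 930 ± 244 in the miR-451a group, and passed with miR-144 but not with miR-451a (limma adjusted p = 0.0447 and 0.0926), a call lost after median centring (adjusted p = 0.0611) and quantile normalization (adjusted p = 0.0958), and with miR-451a it passed in TPM (adjusted p = 0.0472). The list shares Col1a1, Col1a2, Col3a1 and Dcn with the fibroblast and stellate cell markers, whose part in these rises was not tested. Under median centring 10 and 13 were higher and 3 and 1 lower, and under quantile normalization 11 and 12 higher and 1 and 0 lower. Eln, near 0 FPKM, was among the lower in both comparisons after median centring.

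**Figure D4:**
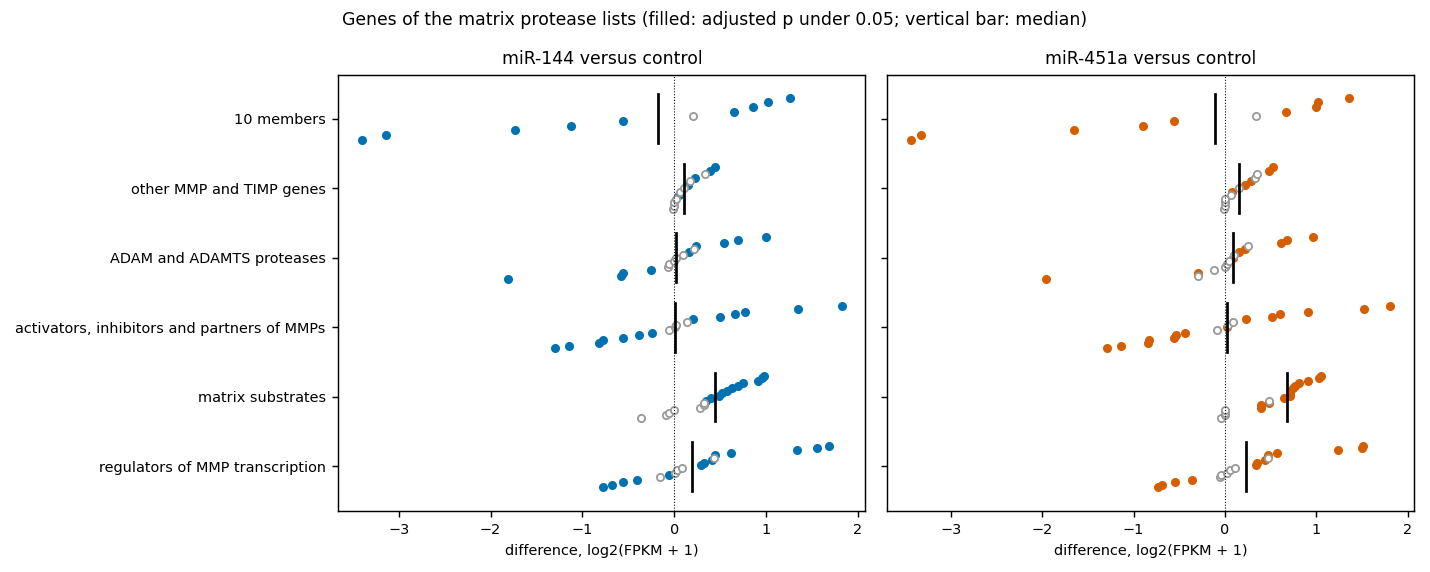
Log2(FPKM + 1) difference from control of the 10 genes and of the genes of 5 related lists, with miR-144 (left) and miR-451a (right). Each point is a gene, filled where the adjusted p is under 0.05, and the vertical bars are medians. The 10 genes spread from -3.43 to 1.35, wider than any of the other lists, and the matrix substrates have the highest medians, 0.44 and 0.68.

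As a description across the 15 samples, with 11418 genes compared and no test, Mmp12 was most like Anxa1 (Pearson r = 0.999 on log2(FPKM + 1)) and Fabp4 (r = 0.999), and Mmp19 most like Tmem26 and Retnla (r = 0.999 for both). Control samples and miRNA samples form separate sets in these genes, so r mostly reflects the gap between the sets. Mmp8 was most like Bnip3l (r = 0.990) and Sort1 (r = 0.990), Mmp13 like Ppargc1b (r = 0.984), and Timp2 like Tuba1b (r = 0.986) and Fcgr2b (r = 0.983). Among the genes that rose, Mmp14 was most like Cnn3 (r = 0.984) and Atxn1 (r = 0.983), Mmp2 like Gpc4 (r = 0.987) and Grb10 (r = 0.979), and Timp1 like Nckap1 (r = 0.963) and Ddr2 (r = 0.956). Timp3 was most like Tagln (r = 0.984) and Cyr61 (r = 0.983). Tagln encodes a smooth muscle actin-binding protein and rose from 11.1 to 30.5 and 29.9 FPKM on average.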

How the data were processed

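TAMs of 15 samples, 5 per group, were measured by RNA-seq on an Illumina instrument. The authors deposited FPKM per gene and sample, and per the labels the processing named FastQC 0.11.2, STAR and StringTie, whose settings, genome build and annotation are not given in the sources used here. FPKM was used as deposited. Groups and replicate numbers came from the labels. The study describes fewer replicates for its TAM sequencing panels than the table holds, and all 5 per group were used here. limma 3.58.1 in R 4.3.3 was fitted with a mean-variance trend to log2(FPKM + 1), a pseudocount of 1, with the 3 groups in 1 fit over 29540 genes above 0 FPKM, without a further filter. Adjustment followed Benjamini-Hochberg. The exact permutation test, two-sided, used all 252 splits of 5 against 5 samples (smallest p 0.00794). The fit was tested on simulated data. Summaries used Python 3.11.15, numpy 2.4.6, pandas 2.3.3 and scipy 1.17.1, and plots matplotlib 3.10.9.

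Depth was read from single-transcript genes, where 35.3% to 49.6% of low values lay within 0.05 of a multiple of 1 fragment (10% by chance), so counts were not recovered. Floors cover counting error only. Samples of a group differed beyond sampling noise (lowest mean chi-square per gene 8.34). Coordinates are those of GENCODE M21, which holds 99.7% of the identifiers, and not necessarily the authors' build. At most 0.878% of the 50-base stretches of a member occur in other genes. Overlapping genes on the opposite strand were Mmp1b (Mmp12), Tmem198b and Gm47093 (Mmp19), Syn1 (Timp1, 2.08 to 3.40 FPKM) and Syn3 (Timp3), and Cep295nl overlapped Timp2 on the same strand.

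The members and gene lists were chosen with earlier results of these data known. All 10 members were named. From each list, genes averaging 1 FPKM or more were named, up to the 4 with the highest mean, with partners of Mmp14, Timp2 and Mmp2, and for each member the 2 genes with the highest Pearson correlation. The markers of cell types, Col4a1, Fos, Fosl1, Fosl2, Junb, Rela, Nfkb1, Tnf, Il1b, Il10, Osm, Il6, Cd44, Plaur and the neighbours on chromosome 9 were named after their values were seen. The symbol Itgam is listed for more than 1 identifier, and the identifier with that symbol in the gene name table was used. Alternatives were a pseudocount of 0.1, filters on means under 1 or 5 FPKM, quantile normalization, median centring of the samples, TPM, no trend, only the groups compared, the replicate block, the exact permutation test and each sample left out in turn.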

Additional observations from a re-analysis of the deposited data

Results flagged for a closer look

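Mmp12 in miR-144 replicate 2 stood apart from its group at 13.4 FPKM. The other 4 samples of the group had 14.9 to 15.5 FPKM, and the gap to the nearest was 0.711 of the range of all 5, just over the critical value of 0.71. The 10 genes give 30 groups of samples for this check, of which 1 had a sample set apart so far, where chance gives about 1 in 20. Mmp12 was 9.36 times lower with miR-144 than in control TAMs, and its log2 difference stayed between -3.17 and -3.10 when any single sample was left out.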

How the results depend on the processing

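Over the alternatives, 723 of 744 values of the 10 genes kept their direction and their side of the threshold. The counts of genes called stayed at 9 with miR-144 and between 8 and 10 with miR-451a, and 0 between the miRNA groups. Mmp9 with miR-451a passed after rescaling to TPM (log2 difference 0.67, adjusted p = 0.0336), with the replicate block (adjusted p = 0.0312) and without any 1 of 5 samples named in the report. Mmp9 could not be tested with a mean of at least 1 or 5 FPKM. Timp1 with miR-451a did not pass the exact permutation test (log2 difference 0.67, adjusted p = 0.0505). Differences between the miRNA groups turned sign near 0 for Timp2 (-0.0035 after median centring), Mmp14 (0.0040 after rescaling to TPM) and, with a sample left out, Mmp14 (-0.073 to 0.058), Timp1 (-0.065 to 0.11) and Timp2 (-0.037 to 0.047).

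The labels do not say what samples with the same number share, and not all pairs deviated together. The deviations from the group means correlated by -0.0122 on average between control and miR-144, by 0.140 between control and miR-451a and by 0.101 between the miRNA groups, and 1, 3 and 4 of 5 samples correlated best with their own number. With the replicate block, 9 genes were called with miR-144, 10 with miR-451a and 0 between the miRNA groups. In both miRNA groups replicates 3 and 4 had the highest liver macrophage marker sums, 46.2 and 50.1 FPKM with miR-144 and 39.6 and 47.3 FPKM with miR-451a. Depth limits Mmp9 most, and FPKM carries no counts from which its counting error could be had.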

Other observations

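Within each miRNA group, the same samples stood at the ends of the range for several genes. In the miR-451a group, replicate 4 had the highest Mmp2, Mmp9, Mmp14, Timp1, Timp2 and Timp3 of the group and the lowest Mmp8 and Mmp12, and replicate 5 had the lowest values of those 6 genes. In the miR-144 group, the samples with the same numbers stood apart in part of these genes, replicate 4 with the highest Mmp9 and Mmp14 and replicate 5 with the lowest Mmp2, Mmp8, Mmp14, Timp1 and Timp2 but the highest Mmp12, Mmp13 and Timp3. The depth of the miR-451a samples was 30.3 and 23.3 M fragments, in the order given, and their fibroblast and stellate cell markers summed to 325 and 258 FPKM, within a group range of 251.7 to 325 FPKM. The part of depth and of those cells in this order was not tested.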
